A study of Drosophila melanogaster with 6 samples.

Results

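The proteasome genes measured here are the 40 genes whose single symbol in the array annotation begins with Prosalpha, Prosbeta, Rpn or Rpt followed by a digit. They are 40 of 11981 genes with a probe set of their own, and each was measured by 1 probe set. RNA came from dechorionated Drosophila melanogaster embryos at stages 12 to 13, when the germ band retracts. The 3 batches of the 6xbcd group came from TT16 males crossed to bcd+t8 females, which carry 6 copies of bicoid (bcd), the maternal gene that patterns the head and thorax. The 3 batches of the 2xbcd group came from TT16 males and TT16 females, which carry 2 copies. Eggs of each batch were collected over 90 min and kept for 8 h at 25 degrees, and RNA of more than 100 eggs went to each array. The fathers were TT16 in both groups, so the mothers' stock, their bcd copies and the embryos' own genotype changed together and cannot be told apart. In whole embryos, fewer cells of a type and less RNA per cell cannot be told apart either.

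The proteasome degrades proteins that carry ubiquitin chains. Its barrel-shaped core particle is built from an outer alpha ring and an inner beta ring on each side, and the beta subunits hold the proteolytic sites. The regulatory particle caps the barrel: its base, with a ring of ATPases (Rpt) and large scaffold subunits, unfolds the substrate, and its lid removes the ubiquitin chain. Every cell needs both particles, and Drosophila also has duplicate genes of several subunits, some of which are used in the male germ line.

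The signal is the authors' scaled brightness on a linear scale, and the authors' present call marks a signal above background. Arrays had 9697 to 10474 present calls. The bcd transcript read 2335, 1497 and 1375 on the 6xbcd arrays, against 861, 546 and 301 on the 2xbcd arrays, in the order of the replicate number. The groups did not overlap, as the labels of the crosses ask. The log2 change came to 1.66 (SE 0.154, limma adjusted p = 0.0189, n = 3 pairs), and without the replicate pairing the adjusted p was 0.118. Of 16 listed markers of embryo tissues, 13 had a probe set of their own. Of these, 11 had a present call on all 6 arrays, among them elav of neurons and repo of glia. Hml of blood cells and the cuticle gene Cpr72Ec had a present call on no array.

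All 26 main subunits that were measured had a present call on all 6 arrays. They comprise 6 of the alpha ring, 6 of the beta ring, 7 of the base and 7 of the lid. Prosalpha1, whose probe set is shared with its duplicate Prosalpha1R, and Prosbeta1, Rpt1, Rpt6, Rpn9 and Rpn10 were not analysed here. The other 14 members are duplicate genes, with a T or an R after the subunit number, and 2 of them passed the filter, which asked for 3 or more present calls among the 6 arrays. The filter thus kept 28 of the 40 members, and 12 duplicates were left untested.

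No proteasome subunit was called different between embryos of 6xbcd and of 2xbcd mothers. None of the 28 tested members passed an adjusted p of 0.05 in limma, where 1.32% of all 10137 tested probe sets passed, 0.75% as higher and 0.572% as lower in 6xbcd. An unadjusted p under 0.05 was found for 3 of the 28, against 14.9% of all tested probe sets. Of these 3, Rpn1 and Rpn12 were higher (7.59% of all tested) and Prosalpha4 was lower in 6xbcd by the signals (7.32%), a direction that the authors' deposited log2 ratios of Prosalpha4 do not share. Log2 changes of the 26 main subunits lay between -0.21 and 0.21, with a median of 0.05, against a median of 0.01 over all tested probe sets. Their 95% intervals, taken from the same fit, lay between -0.42 and 0.44 on the log2 scale. The log2 change was positive for 21 of the 28 tested members, against 52.7% of all tested probe sets, for 18 of the 28 after median scaling, against 47.3%, and for 24 of the 28 without replicate 2, against 51.9%. All 3 pairs were higher in 6xbcd for 5 members (19.7% of all tested) and lower for 2, Prosalpha4 and Rpn3 (19.3%).

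**Figure D1:**
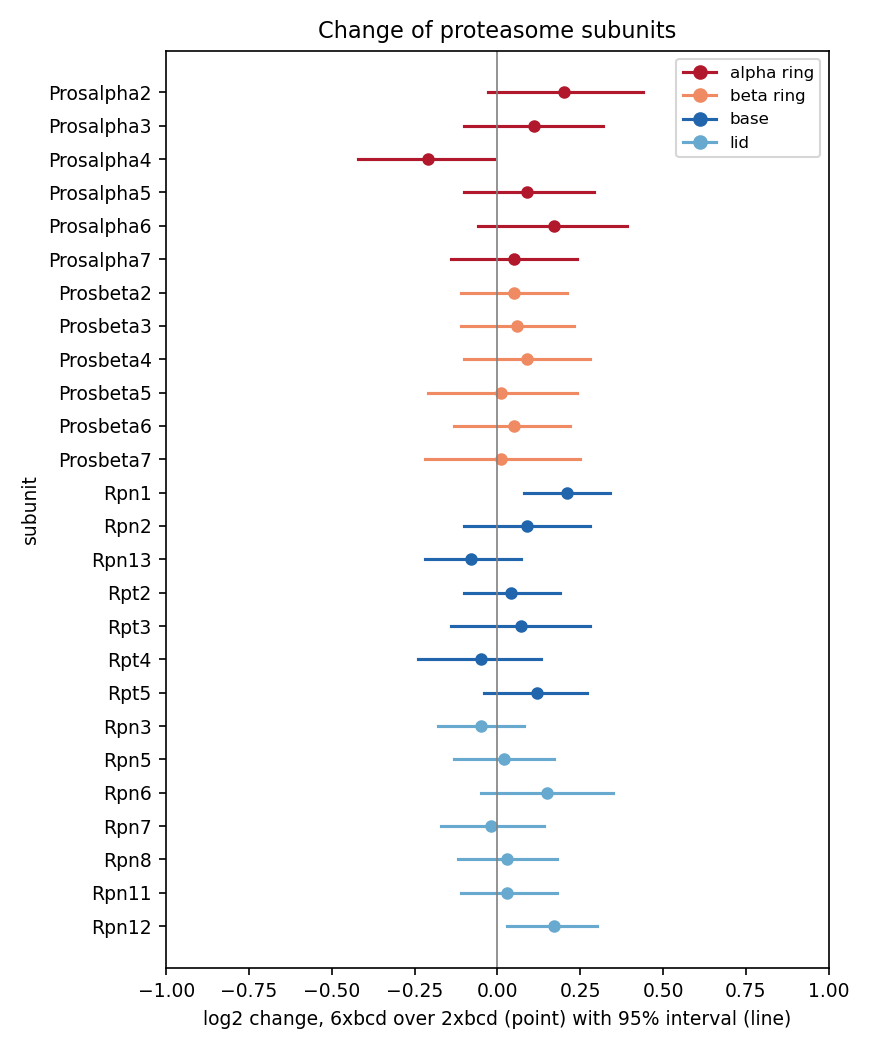
Log2 change of the signal in 6xbcd over 2xbcd embryos (horizontal axis) for the 26 main subunits of the proteasome, as a point with its 95% interval from limma, n = 3 arrays per group with the replicate number as a block. The changes lie between -0.21 and 0.21, and none passed an adjusted p of 0.05.

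The alpha ring forms the gate through which unfolded proteins enter. Its 6 measured subunits had a median log2 change of 0.10, with 5 positive and 1 negative. Prosalpha2 read 3520.7, 3275.7 and 2815.8 in 6xbcd embryos, against 2540.4, 3123.6 and 2671.6 in 2xbcd embryos. It was higher in all 3 pairs, but the groups overlapped, and most of the difference lay in pair 1, where the log2 change was 0.47 against 0.07 and 0.08 in pairs 2 and 3. The log2 change came to 0.20 (SE 0.0954, limma adjusted p = 0.397), and to 0.07 without replicate 1.

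Prosalpha4, an alpha ring gene on the X chromosome, went the other way. Its signals were 2789.3, 2216.9 and 2329.3 in 6xbcd embryos and 2984.5, 2972.6 and 2529.0 in 2xbcd embryos. It was lower in 6xbcd in 3 of 3 pairs, with the groups overlapping, and its log2 change was -0.21 with a 95% interval of -0.42 to -0.01 (unadjusted p = 0.0441, limma adjusted p = 0.319). Without replicate 2 the change was -0.11. In the authors' deposited table its log2 ratios were 0.2, 0.0 and 0.1 in pairs 1, 2 and 3, none of them negative and all called no change, so the direction differs between the deposited signals and the deposited ratios. The other X-linked main subunits, the ATPase genes Rpt3 and Rpt4, had log2 changes of 0.07 and -0.05.

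In the beta ring, where Prosbeta2 carries the trypsin-like and Prosbeta5 the chymotrypsin-like activity, log2 changes lay between 0.01 and 0.09 over 6 subunits. Prosbeta5 averaged 4568 ± 361 in 6xbcd embryos and 4565 ± 772 in 2xbcd embryos (SD, n = 3 each). Its log2 change was 0.01, with a 95% interval of -0.21 to 0.24. Prosbeta2 averaged 5838 ± 391 in 6xbcd embryos and 5629 ± 310 in 2xbcd embryos (SD, n = 3 each), a log2 change of 0.05 with an interval of -0.11 to 0.21.

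In the base, Rpn1, a scaffold that docks ubiquitin receptors, had the smallest p of all members. It read 1516.8, 2209.3 and 2092.8 in 6xbcd embryos, against 1323.5, 1889.7 and 1810.4 in 2xbcd embryos. The pairs agreed closely, with log2 changes of 0.19, 0.22 and 0.21, while the groups overlapped because replicate 1 was the lowest array of each group. The log2 change came to 0.21 (SE 0.0527), with a 95% interval of 0.08 to 0.34 (unadjusted p = 0.00876, limma adjusted p = 0.175). Without the replicate block the limma adjusted p was 0.778. The authors' deposited table gave Rpn1 log2 ratios of 0.3, 0.2 and 0.1, all called no change.

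The ATPase Rpt5 had a log2 change of 0.12 (SE 0.0636, limma adjusted p = 0.459), 0.07 without replicate 1, and was higher in 3 of 3 pairs. Rpn13, a ubiquitin receptor of the base, had a log2 change of -0.08, with an interval of -0.22 to 0.07. The other base subunits, Rpn2, Rpt2, Rpt3 and Rpt4, had changes of 0.09, 0.04, 0.07 and -0.05.

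In the lid, Rpn12 was the 1 tested member whose groups did not overlap. It read 3070.3, 3203.8 and 3359.6 in 6xbcd embryos and 2785.2, 2864.0 and 2911.4 in 2xbcd embryos. Every 6xbcd array was thus above every 2xbcd array, a pattern shown by 7.38% of all tested probe sets. The reverse, every 2xbcd array above every 6xbcd array, was found in 0 of the 28 tested members and in 8.68% of all tested probe sets. The log2 change of Rpn12 came to 0.17 (SE 0.0544, unadjusted p = 0.0233, limma adjusted p = 0.257). The authors' deposited table gave it log2 ratios of 0.1, 0.0 and 0.1, all called no change. Rpn6, a lid subunit that braces the lid against the core, had a log2 change of 0.15 (SE 0.0804, limma adjusted p = 0.459), with 0.34 in pair 1, 0.10 in pair 2 and 0.00 in pair 3, and 0.05 without replicate 1. The deubiquitinase Rpn11 and its partner Rpn8 both had a log2 change of 0.03, and Rpn3, Rpn5 and Rpn7 had -0.05, 0.02 and -0.02.

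The pairs did not move the same way. The median log2 change of the core particle was 0.12, -0.05 and 0.13 in pairs 1, 2 and 3, with 8, 2 and 11 of its 12 subunits higher in 6xbcd. For the regulatory particle it was 0.12, 0.06 and -0.02, with 12, 9 and 6 of its 14 subunits higher in 6xbcd. Over all tested probe sets the median was -0.01, 0.02 and -0.01.

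The authors' deposited table, which calls each pair of arrays by itself, gave an increase to 3 of the 28 tested members in pair 1, 0 in pair 2 and 2 in pair 3. It gave an increase to 4.41%, 6.76% and 13.8% of all tested probe sets in the same pairs. In the authors' deposited table Prosalpha2, Prosalpha3 and Rpn6 were increased in pair 1, with log2 ratios of 0.4, 0.3 and 0.4, and Prosalpha6 and Prosbeta5 in pair 3, with 0.2 and 0.3. It called a decrease of 0 tested members in each pair, against 6.18%, 4.27% and 9.03% of all tested probe sets, and no member was called in more than 1 pair.

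The core and the regulatory particle differed along the replicate number, a pattern noticed after the values were seen. To compare subunits of different brightness, each was set against its own mean log2 value over the 6 arrays. On the 6xbcd arrays the core particle subunits had median deviations of 0.19, -0.02 and -0.08 for replicates 1, 2 and 3, and on the 2xbcd arrays 0.11, 0.03 and -0.19. The regulatory particle had medians of -0.10, 0.15 and 0.02 on the 6xbcd arrays and -0.21, 0.09 and 0.05 on the 2xbcd arrays. The core median was thus high, and the regulatory median low, on replicate 1 of each group. On the 2xbcd arrays the beta ring had medians of 0.17, 0.01 and -0.27. The alpha ring had 0.04, 0.08 and -0.17 there, with replicate 2 above replicate 1. Over all tested probe sets the medians lay between 0.00 and 0.02.

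**Figure D2:**
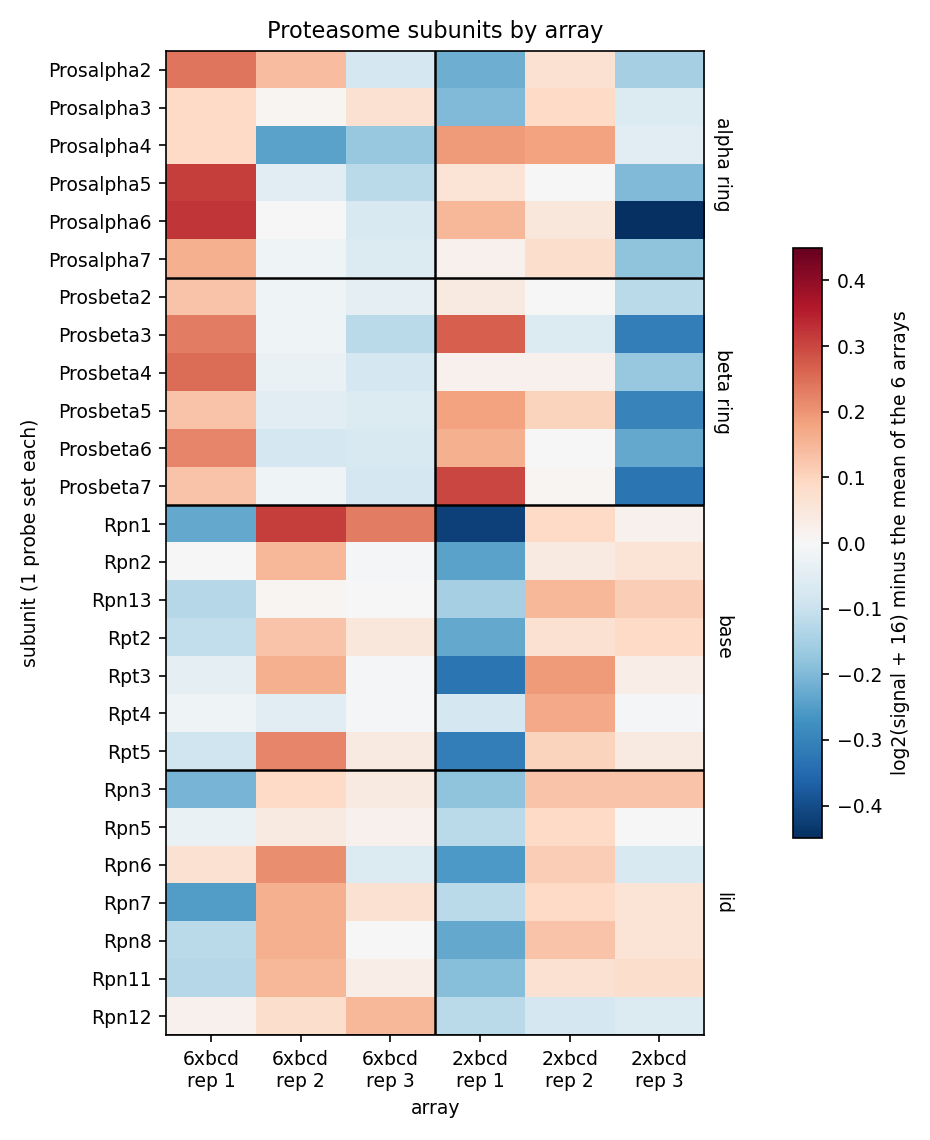
Heat map of the 26 main subunits (rows, in order of alpha ring, beta ring, base and lid) on the 6 arrays (columns). Colour shows log2(signal + 16) minus the mean of the 6 arrays, red above and blue below. Core rows are red and regulatory rows mostly blue on replicate 1 of 6xbcd, and all 14 regulatory rows are blue on replicate 1 of 2xbcd, where 10 of 12 core rows are red.

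Prosalpha6 showed this in the core. It read 3772.2, 3031.3 and 2888.9 on the 6xbcd arrays and 3373.5, 3128.4 and 2214.9 on the 2xbcd arrays, and replicate 1 was the highest array of each group. Its highest signal was 1.70-fold the lowest, the widest spread of the main subunits. Prosbeta7 read 5025.3, 4533.6 and 4343.9 on the 6xbcd arrays and 5678.2, 4624.5 and 3669.5 on the 2xbcd arrays, with the same order of arrays in each group. Prosbeta3 read 4561.4, 3848.7 and 3582.4 on the 6xbcd arrays and 4696.6, 3730.8 and 3142.4 on the 2xbcd arrays. These core genes were chosen after their values were seen, as were Rpt5 and Rpn8 below as examples of the opposite order.

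Subunits read on the same arrays are not replicates of each other. The counts here and for the regulatory particle below are thus a description with no test. All 12 core subunits had replicate 1 as the highest of the 6xbcd arrays, which held for 32.0% of all tested probe sets. Replicate 1 was also the highest of the 2xbcd arrays for 8 of the 12, against 36.6% of all tested probe sets. For the same 8 it was highest in both groups, against 17.0%. Those 8 comprise 3 alpha and 5 beta subunits. Prosalpha2 and Prosalpha3 were exceptions, since replicate 1 was their lowest 2xbcd array. For Prosalpha7 and Prosbeta4, also exceptions, replicate 1 was the middle 2xbcd array. On replicate 3 of 2xbcd all 12 core subunits lay below their own mean, and for 9 of them it was the lowest array of all 6, against 21.5% of all tested probe sets.

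The regulatory particle ran the other way. Rpt5 read 2581.4, 3223.6 and 2839.6 on the 6xbcd arrays and 2224.5, 2950.5 and 2824.6 on the 2xbcd arrays. Rpn8 read 2124.0, 2589.3 and 2315.9 on the 6xbcd arrays and 1961.3, 2523.3 and 2404.7 on the 2xbcd arrays. In both genes replicate 1 was the lowest array of each group, and replicate 2 the highest.

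Replicate 1 was the lowest of the 6xbcd arrays for 11 of 14 regulatory subunits, against 37.7% of all tested probe sets. It was the lowest of the 2xbcd arrays for all 14, against 39.8%, and the lowest of both groups for 11, against 22.9%. For 10 of the 14 the replicate 1 arrays were the lowest pair of all 6 arrays, against 15.1%. Base and lid shared the order, with 5 of 7 and 6 of 7 subunits lowest on replicate 1 of both groups. Rpt4, Rpn6 and Rpn2 did not follow it on the 6xbcd arrays, where the lowest array was replicate 2 for Rpt4 and replicate 3 for Rpn6 and Rpn2.

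**Figure D3:**
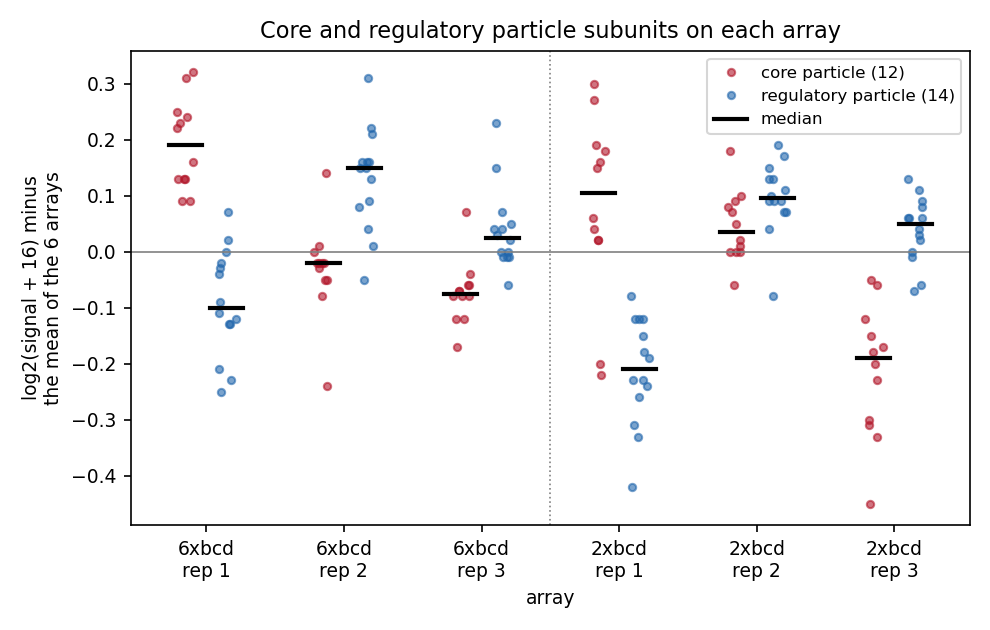
Deviation of each subunit from its own mean over the 6 arrays, log2(signal + 16), for the 12 core subunits (red) and 14 regulatory subunits (blue) on each array, with black bars at the medians. On replicate 1 the core median is above the regulatory median in both groups, and on the other arrays it is below.

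The median of the core less that of the regulatory particle was 0.29, -0.17 and -0.10 on the 6xbcd arrays and 0.31, -0.06 and -0.24 on the 2xbcd arrays. The step from replicates 2 and 3 to replicate 1 was also taken for each subunit, as its mean log2 value on the replicate 1 arrays less that on the other arrays. The median step of the core subunits less that of the regulatory subunits was 0.47, or 1.38-fold. It was 0.42 over the 6xbcd arrays alone and 0.43 over the 2xbcd arrays alone, since a median over subunits need not lie between those of its parts. This contrast was chosen after the arrays were compared, so it is a description with no test. In a limma F test of the replicate number, also added after seeing the data, 0 of 10137 probe sets (0.0%) passed an adjusted p of 0.05. The unadjusted p was under 0.05 for 13 of the 28 tested members, 5 core and 8 regulatory ones, against 16.1% of all tested probe sets. Same-numbered arrays form a pair in the design text, which does not say what a pair shares.

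Brightness differed between the particles, since mean signals over 6 arrays ran from 2637 to 5733 for core and from 1807 to 3974 for regulatory subunits. All 777 tested probe sets within the core range had median deviations of 0.00, 0.00 and -0.04 on the 6xbcd arrays and -0.02, 0.03 and 0.04 on the 2xbcd arrays. The 6 core subunits inside the range of the regulatory ones gave a difference of 0.50 in place of 0.47. Those 777 probe sets include the core subunits. On replicate 1 of 6xbcd, 390 of the 777 lay above and 387 below their own mean, where all 12 core subunits lay above. On replicate 3 of 6xbcd it was 265 above and 512 below, with 1 core subunit above and 11 below. On replicate 3 of 2xbcd it was 468 above and 309 below, with 0 core subunits above and 12 below. The part of brightness in the pattern was not tested.

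The arrays also carry control probe sets at both ends of some fly transcripts, whose ratio of 3′ to 5′ signal reads the length of the labelled RNA. For eIF-4A it was 4.57, 3.79 and 3.37 on the 6xbcd arrays and 3.98, 3.97 and 3.64 on the 2xbcd arrays. For actin it was 2.88, 2.55 and 2.15 on the 6xbcd arrays and 2.58, 2.61 and 2.28 on the 2xbcd arrays. For GAPDH it was 3.61, 2.77 and 1.78 on the 6xbcd arrays and 3.04, 3.07 and 2.82 on the 2xbcd arrays. In all 3 controls the ratio was highest on replicate 1 of the 6xbcd arrays, where the core subunits were high. In 2xbcd replicates 1 and 2 were close together. Replicate 3 had the lowest ratio of each group in all 3 controls, and the core median was lowest there too. The part of this ratio in the pattern of the particles was not tested.

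Some markers of embryo tissues moved along the replicate number too. Present calls on all 6 arrays were found for 11. Of these, 5 had replicate 1 as the lowest of both groups, against 22.9% of all tested probe sets. They were elav, moody of glia, btl of trachea, and fkh and sage of salivary glands. Replicate 1 was the highest of both for 1, TwdlT of late cuticle, against 17.0%. For srp of blood cells, and for vas and nos of germ cells, replicate 1 was the lowest of neither group. The markers fne of neurons and repo of glia did not keep to the order of elav and moody. Replicate 1 was the highest 2xbcd array for fne, with 3758.8, 2968.8 and 3154.1. For repo it was the highest 6xbcd array, with 1766.3, 1734.5 and 1515.5. TwdlT read 237.6, 211.6 and 197.5 on the 6xbcd arrays and 214.1, 78.9 and 71.7 on the 2xbcd arrays. The marker btl read 195.3, 303.2 and 296.2 on the 6xbcd arrays and 265.0, 336.7 and 333.5 on the 2xbcd arrays. The summed signal of all 13 measured embryo markers was 16984, 18317 and 17263 on the 6xbcd arrays and 17536, 17943 and 20209 on the 2xbcd arrays. The largest part of that sum was elav, with 7302.0, 8349.1 and 7390.3 on the 6xbcd arrays and 6900.7, 8220.8 and 9456.7 on the 2xbcd arrays. The part of tissue makeup or stage in the pattern of the particles was not tested.

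Of 24 listed partners of the proteasome, which assemble it, regulate it or bring it ubiquitylated proteins, 22 had a tested probe set. The list was chosen with earlier results of these data known. In limma 1 of the 22 passed an adjusted p of 0.05, lower in 6xbcd embryos, where 0.572% of all tested probe sets passed in that direction, and 0 passed as higher. Their median log2 change was 0.03.

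The partner that fell was Roc1a, the RING subunit of cullin ubiquitin ligases, an X-linked gene. It read 720.5, 726.4 and 781.2 in 6xbcd embryos, against 1240.4, 1263.7 and 1079.3 in 2xbcd embryos, without overlap. The log2 change came to -0.67 (SE 0.0886, limma adjusted p = 0.0373), and over the alternatives the adjusted p ran from 0.00134 to 0.248. The call was lost without the intensity trend (0.189), without replicate 1 (0.168) and without replicate 2 (0.248). In the authors' deposited table its log2 ratios were -0.2, -0.3 and -0.2, smaller than in the deposited signals, with a marginal decrease in pair 3 and no change in the others.

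Of the other partners with the smallest p, REG, the proteasome activator of the nucleus, had a log2 change of 0.17 (SE 0.0659, limma adjusted p = 0.324). The small Maf factor maf-S, the dimer partner of cnc, the factor that turns on stress genes in Drosophila, had -0.16 (SE 0.0639, limma adjusted p = 0.325). Its 6xbcd arrays read 5719.3, 5527.4 and 5456.6 and its 2xbcd arrays 6277.8, 6133.8 and 6288.0, without overlap. Cul3, a cullin scaffold, had 0.14 (SE 0.0569, limma adjusted p = 0.343), and cnc itself 0.26 with an interval of -0.08 to 0.60. The log2 changes of REG in pairs 1, 2 and 3 were 0.15, 0.26 and 0.09 by the signals. Its log2 ratios in the authors' deposited table were 0.1, -0.1 and 0.0. For cnc the signals gave -0.08, 0.65 and 0.21, and the deposited ratios were 0.1, 0.2 and 0.1. All of these ratios were called no change.

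Partners of each particle were then set beside the order of the arrays, with genes chosen after their values were seen. Pomp, the assembly chaperone of the core particle, read 4436.6, 3501.6 and 3732.9 on the 6xbcd arrays and 4385.5, 3787.2 and 3912.7 on the 2xbcd arrays. Replicate 1 was the highest of each group, as in 8 of the 12 core subunits. Sem1, a small subunit of the lid, read 3026.0, 3334.7 and 3394.4 on the 6xbcd arrays and 2794.8, 4066.4 and 4172.8 on the 2xbcd arrays. Usp14, a deubiquitinase that sits on the base, read 3605.5, 3917.8 and 3955.5 on the 6xbcd arrays and 3420.5, 4395.8 and 4215.7 on the 2xbcd arrays. For both, replicate 1 was the lowest of each group, as in 11 of the 14 regulatory subunits. Other partners of the particles did not keep to their order. PI31, a regulator that binds the core, read 418.3, 627.6 and 626.3 on the 6xbcd arrays and 573.2, 671.4 and 699.6 on the 2xbcd arrays, with replicate 1 lowest in each group, against the order of the core. Uch-L5, a deubiquitinase of the regulatory particle, read 1375.5, 1282.9 and 1399.1 on the 6xbcd arrays and 1307.5, 1284.7 and 1093.1 on the 2xbcd arrays, and replicate 1 was the lowest of neither group. Over the 22 partners, replicate 1 was highest in both groups for 3 and lowest in both for 6. The shares among all tested probe sets were 17.0% and 22.9%, as given above, so the partners as a whole were not far from them.

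The 14 duplicate genes gave little signal in these embryos. A present call on no array was found for 10 of them, of which 9 had an absent call throughout. The 4 with a T in their symbol, Prosalpha3T, Prosalpha4T1, Prosalpha4T2 and Prosalpha6T, are testis genes in adult flies, and none had a present call. The groups of Prosalpha3T did not overlap, with 17.1, 13.9 and 17.4 on the 6xbcd arrays and 1.2, 7.3 and 12.8 on the 2xbcd arrays, but every one of these signals had an absent call. Rpn13R was the 1 duplicate with a present call on all 6 arrays. It read 88.2, 66.9 and 97.0 on the 6xbcd arrays and 78.4, 114.0 and 99.0 on the 2xbcd arrays, and its log2 change was -0.18 with a 95% interval of -0.76 to 0.40 (limma adjusted p = 0.768).

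Rpt3R had a present call on replicate 3 of 6xbcd and on replicates 2 and 3 of 2xbcd. It read 62.5, 45.7 and 59.3 on the 6xbcd arrays and 55.6, 48.1 and 66.5 on the 2xbcd arrays, a log2 change of -0.02 with an interval of -0.53 to 0.50 (limma adjusted p = 0.98). Rpt4R was present on replicate 3 of 6xbcd alone, with signals of 30.7, 16.2 and 16.1 on the 6xbcd arrays and 17.5, 7.4 and 22.1 on the 2xbcd arrays. Prosbeta2R2 was present on replicate 3 of 2xbcd alone, with 15.8, 2.1 and 30.4 on the 6xbcd arrays and 23.3, 16.6 and 16.5 on the 2xbcd arrays. In both the groups overlapped.

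The widest ranges of log2(signal + 16) among all 40 members were those of duplicates not well above background, so they carry no order. Besides Prosbeta2R2 these were Prosbeta4R2, with 1.9, 27.0 and 8.2 on the 6xbcd arrays and 3.3, 1.3 and 0.9 on the 2xbcd arrays, Prosbeta2R1, with 39.0, 23.2 and 23.6 in 6xbcd against 9.9, 12.0 and 28.0 in 2xbcd, and Rpn12R, with 3.6, 27.5 and 24.6 in 6xbcd against 24.3, 27.0 and 31.6 in 2xbcd. No fold is given for them.

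Testis markers varied in level. Of 8 listed markers, dj, Mst87F, Mst98Ca and sa had a present call on no array. All 6 arrays had one for bam, twe and can, of which bam and twe also act in the female germ line. Mst84Da had a present call on replicates 1 and 3 of 6xbcd, with signals of 28.2, 12.4 and 35.3 on the 6xbcd arrays and 2.3, 13.3 and 13.1 on the 2xbcd arrays. Signals of bam were 269.2, 160.0 and 179.0 on the 6xbcd arrays and 173.6, 127.7 and 106.6 on the 2xbcd arrays, highest on replicate 1 of each group. Signals of twe were 297.3, 202.1 and 308.4 on the 6xbcd arrays and 326.2, 203.1 and 166.5 on the 2xbcd arrays. The summed signal of the 8 was 674, 435 and 615 on the 6xbcd arrays and 569, 441 and 366 on the 2xbcd arrays. Most of that sum came from bam and twe on every array.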

How the data were processed

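Total RNA of 6 embryo batches was hybridised to 6 Affymetrix Drosophila Genome 2.0 arrays, and the scans were processed with GCOS, per the submitters' processing notes (version not given in the sources used here). Intensity values on a linear scale were scaled by the authors to a trimmed mean of 500 on each array (2% left out per end). Per the file headers, each pair of arrays also has the authors' log2 ratio with its call and p-value. Both tables hold the same signals for all 18952 probe sets.

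Genes were named from the platform annotation. After removal of 183 control probe sets, 10137 probe sets with 3 or more present calls among the 6 arrays were tested as log2(signal + 16), so folds understate changes of dim probe sets. The fit was limma 3.58.1 (R 4.3.3) with an intensity trend, two-sided, Benjamini-Hochberg adjusted, with the replicate number as a block because the design text calls the experiments paired. Deviations of same-numbered arrays correlated at 0.437, 0.385 and -0.19, and some differently numbered arrays did as well (6xbcd 2 with 2xbcd 3 at 0.422, 6xbcd 3 with 2xbcd 1 at 0.342), so the values do not bear out the pairing and the block rests on that text. The fit was tested on simulated data, with independent noise and changes larger than that of any tested member. That test does not cover changes of their size. Precision is limited by the number of arrays. RNA samples were independent, per the design text.

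The members and lists were chosen with earlier results of these data known. Named were bcd, the members with the smallest p, the largest changes or the widest ranges, duplicates with a present call, and the 4 partners with the smallest p; others are said to be chosen after their values were seen. The fit was repeated with each replicate left out, with the second table, without the trend or the block, at an adjusted p of 0.1, with offsets of 1 and 64, after quantile normalization or median scaling, and with either no filter or 6 of 6 present calls. The replicate-number F test, the array pattern and its alternatives were added after seeing the data.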

Additional observations from a re-analysis of the deposited data

How the results depend on the processing

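The count of 0 proteasome members called stood under all 13 alternatives. The lowest adjusted p of any member lay between 0.139 (quantile normalization, or a present call on all 6 arrays) and 0.574 (without replicate 2). The second table holds the same signals, so it could not change the count. Over all tested probe sets only 5 passed without the trend, 17 without replicate 1 and 10 without replicate 2. Such low counts left little room for a member to be called. The median log2 change of the members stayed between 0.02 and 0.08. Leaving out the block or the trend, or taking the second table, could not change that median. The balance of core and regulatory particle on replicate 1 was noticed on the arrays that its alternatives reuse. They are thus no test of it. The second table and the filter of 6 of 6 present calls could not change it. It stayed between 0.42 and 0.50 under 11 alternatives added after seeing the data. The yardstick for these, an SD of 0.08 over the replicate 2 and 3 arrays, replaced a first one, the SD of 0.005 between the groups' own values, after the first had put 7 of the 11 outside it. The count over all tested probe sets, 134, was 5 without the intensity trend, 247 at an adjusted p of 0.1, and between 10 and 270 when 1 replicate was left out. Without the replicate block it was 97, and 0 members were called. The log2 change of bcd was 1.66 without the block and without the trend, where the adjusted p was 0.118 and 0.14, and it ran from 1.43 to 1.78 with a replicate left out. Its call was lost without replicate 1 (adjusted p = 0.076) and without replicate 2 (0.0984). With a replicate left out, Rpn13R ran from -0.34 to 0.06 and turned positive without replicate 2. Rpt3R ran from -0.09 to 0.04, with 0.00 without replicate 2 and 0.04 without replicate 3. The cause was not tested. Dim duplicates near background allow no statement on change.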
